A study of Mus musculus with 6 samples.

Results

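The genes described here are the core of the TGF-beta pathway in regulatory T cells (Tregs): the ligand gene Tgfb1, its surface carrier Lrrc32, the receptor genes Tgfbr1 and Tgfbr2, the signal carriers Smad2, Smad3 and Smad4, and the inhibitors Smad7, Ski and Skil. They were chosen by symbol, and all 10 were found among the 23725 genes of the deposited tables. Tregs are CD4 T cells that restrain immune responses. The cells were taken from the lymph nodes of C57Bl/6 mice after immunisation with MOG, a protein of the myelin sheath that insulates nerve fibres. One group was wild type (WT) and the other lacked MOG in the whole animal (MOG KO), and both groups were immunised with it. Each group held 3 libraries, made from 500 cells each. Whether each replicate is another mouse is not said in the labels. P-values therefore reflect only how far these samples spread, which may in part be technical spread.

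TGF-beta is secreted in a latent form, folded inside its own propeptide. Tregs display this latent form on their surface bound to the protein GARP, which Lrrc32 encodes. Once released, the ligand binds the type II receptor, which recruits and activates the type I receptor. That receptor phosphorylates SMAD2 and SMAD3, which join SMAD4 and enter the nucleus to regulate transcription. SMAD7 blocks the activated receptor, and SKI and SKIL (SnoN) hold back SMAD complexes on DNA. The pathway is known for inducing Foxp3 in peripheral Tregs and for restraining T cell activation.

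Total gene counts per library ranged from 2717969 to 4472549, and 2701 to 4440 genes per library reached 10 RPM (reads-per-million, each count over the library's total), the level called read from here on. WT replicate 3 had the fewest genes read. A count of 0 allows a level of up to 3 counts, which was 0.671 to 1.10 RPM depending on the library and covers counting error only. Of 9 T cell and Treg marker genes matched in the table, all 9 were read in 5 libraries. WT replicate 3 had 7, with Foxp3 and Cd3g under 10 RPM. The summed level of these markers was 3057 to 4912 RPM in WT libraries, against 3890 to 4686 RPM in MOG KO. CD8 T cell markers (2 genes) and NK cell markers (3 genes) had 0 counts in every library.

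In these Tregs each of the 10 genes was under 10 RPM in at least 1 library, and none passed the edgeR test of MOG KO against WT. Tgfb1, Tgfbr1, Tgfbr2 and Ski were read in 5 of 6 libraries, each missing from a different one. Of all genes read in at least 1 library, 8.51% were read in 5 libraries and 8.90% in all 6. Smad2 was read in all 3 MOG KO libraries and in 1 WT library, and Skil in 2 WT libraries and in no MOG KO library. Smad3 was read in 2 MOG KO libraries, Smad7 in 3 libraries of both genotypes, and Lrrc32 and Smad4 in 1 library each. Values below are RPM in replicates 1, 2 and 3, WT before MOG KO, and the RNA came from bulk cells, so fewer cells that express a gene and less RNA per cell cannot be told apart.

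**Figure D1:**
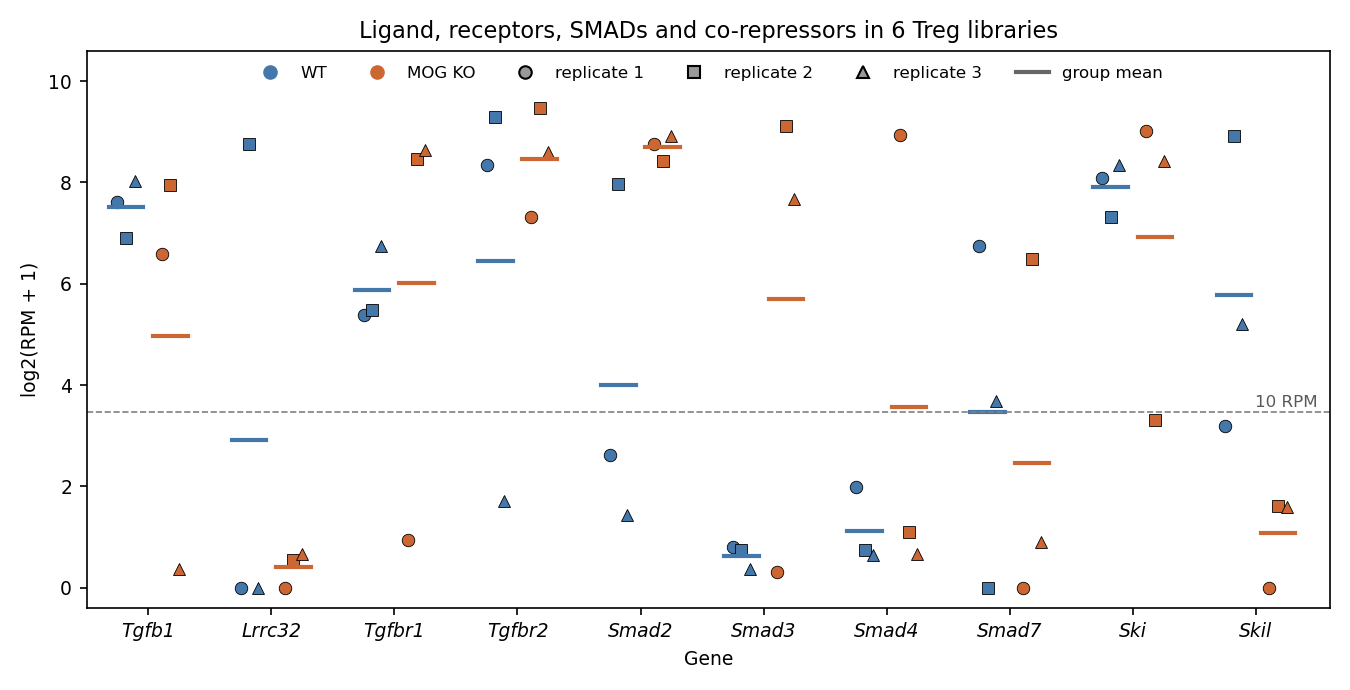
Level of each gene in each library as log2(RPM + 1), with WT in blue and MOG KO in orange, marker shape giving the replicate number and short bars the group mean of 3 libraries. Most values stand far above or far below the dashed line at 10 RPM, and the groups are separate for Smad2 and Skil alone.

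Tgfb1, the gene of the ligand that Tregs and most other leukocytes make, had 195, 119 and 259 RPM in the WT libraries, against 95.7, 247 and 0.29 RPM in MOG KO. The WT libraries and 2 of the MOG KO libraries lay in one range, and MOG KO replicate 3 had 1 count. Among genes read in the same library, Tgfb1 stood between the 25.5 and the 56.1 percentile. Its log2 fold change, MOG KO minus WT, was -0.83 ± 2.11 (SE over 3 libraries per group; 95% interval -5.74 to 4.08). It was -0.24 without MOG KO replicate 3, -0.42 without WT replicate 3, -2.16 without MOG KO replicate 2 and -2.82 in limma-voom. Tgfb1 (Entrez 21803) lies on chromosome 7 from 25687002 to 25705077 on GRCm38, the assembly that mm10 names.

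Lrrc32, which encodes the GARP carrier, had 0, 431 and 0 RPM in the WT libraries, against 0, 0.459 and 0.58 RPM in MOG KO. A single library, WT replicate 2, held 1926 of its counts, and the 3 MOG KO libraries together held 4. In that library Lrrc32 stood at the 89.5 percentile of the genes read. The groups overlapped, because the other WT libraries had 0 counts. Lrrc32 did not pass the low-count filter, and the difference of its mean log2(RPM + 1) was -2.52 (exact two-sided permutation p = 1). That difference was 0.40 without WT replicate 2. Platelets also carry both GARP and TGF-beta. The platelet and megakaryocyte genes Pf4, Ppbp, Itga2b and Gp9 summed to at most 2.58 RPM in any library. They were all at 0 counts in WT replicate 2, and the part of platelets in the Lrrc32 values was not tested. Lrrc32 (Entrez 434215) lies on chromosome 7 from 98489283 to 98502181.

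Tgfbr2 encodes the receptor that binds the ligand first. It had 326, 622 and 2.27 RPM in the WT libraries, against 159, 703 and 388 RPM in MOG KO. WT replicate 3 was the low library, and the other 5 overlapped across genotypes. The log2 fold change was 0.43 ± 1.59 (SE), with a 95% interval of -3.27 to 4.13, and it was -0.15 without WT replicate 3. In both replicates labelled 2, Tgfbr2 was among the highest genes, at the 96.0 percentile of those read in WT and at the 94.1 percentile in MOG KO.

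Tgfbr1 encodes the kinase that phosphorylates SMAD2 and SMAD3. It had 40.8, 43.6 and 106 RPM in the WT libraries, against 0.924, 353 and 398 RPM in MOG KO. The WT libraries lay between 40.8 and 106 RPM, and the MOG KO libraries stood on both sides of them, 1 below and 2 above. The fitted log2 fold change was 1.91 ± 2.14 (SE), with a 95% interval of -3.08 to 6.89. On the mean of log2(RPM + 1), where the low library weighs more, the difference was 0.15 (exact two-sided permutation p = 1), and it was 2.69 without MOG KO replicate 1 and -1.16 without MOG KO replicate 3. Both receptor genes were read in 4 libraries, with Tgfbr2 missing in WT replicate 3 and Tgfbr1 in MOG KO replicate 1. Tgfbr1 (Entrez 21812) lies on chromosome 4 from 47353222 to 47414931 and Tgfbr2 (21813) on chromosome 9 from 116084293 to 116175360.

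Smad2, one of the pair of SMADs that the receptor phosphorylates, had 5.15, 251 and 1.70 RPM in the WT libraries, against 434, 343 and 485 RPM in MOG KO. Every MOG KO library was above every WT library, and 2 of the WT libraries were under 10 RPM. Groups that did not overlap, with MOG KO higher, were found for 5.97% of all 4088 genes tested. The MOG KO libraries, in which Smad2 was high, sufficed to pass the low-count filter, so the filter favoured a difference in this direction. The log2 fold change of Smad2 was 2.32 ± 2.02 (SE), with a 95% interval of -2.40 to 7.04 and an adjusted p of 1 in edgeR. The difference of mean log2(RPM + 1) was 4.70, with an exact two-sided permutation p of 0.1, the smallest that 3 samples against 3 allow. Without WT replicate 2, the WT library that read it, the fitted value was 6.89 (adjusted p = 0.784 in edgeR), and without any other single library it lay between 1.74 and 2.48.

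Smad3, the partner of SMAD2, had 0.736, 0.671 and 0.283 RPM in the WT libraries, against 0.231, 555 and 204 RPM in MOG KO. It was at 1 to 3 counts in all WT libraries and in MOG KO replicate 1, so the groups overlapped. With only 2 libraries well above 0, Smad3 did not pass the filter of edgeR. With no filter its log2 fold change was 8.69 ± 4.07 (SE, adjusted p = 0.449 in edgeR). DESeq2 put Smad3 past the threshold (8.89 ± 2.35 SE, adjusted p = 0.00452), as it did 5.83% of 4648 genes in this direction. The MOG KO libraries held 3126 counts of Smad3 and the WT libraries 6. Smad3 thus passed the low-count filter of DESeq2 through the group in which it was high, so that filter favoured a difference in this direction. The exact permutation p of the log2(RPM + 1) difference was 0.4.

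Smad2 and Smad3 together summed to 5.89, 251 and 1.98 RPM in the WT libraries, against 434, 898 and 690 RPM in MOG KO. This sum was formed after its parts had been seen and carries no test. WT replicates 1 and 3 had both of these SMADs under 10 RPM, WT replicate 2 and MOG KO replicate 1 read Smad2 alone, and MOG KO replicates 2 and 3 read both. Pecam1, the endothelial and leukocyte adhesion gene in the stroma and endothelium list, was the one gene of that list that was read in any library. It had 89.4, 24.4 and 1.98 RPM in the WT libraries, against 461, 25.2 and 47.2 RPM in MOG KO. Of the other genes in that list, Pdgfrb had 0 counts in every library. Cdh5, Col1a1 and Col1a2 had at most 0.29, 2.75 and 3.68 RPM in any library. The part of such cells in the Smad2 and Smad3 values was not tested.

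Smad4, the shared partner without which SMAD2 and SMAD3 form no complete complex, had 2.94, 0.671 and 0.567 RPM in the WT libraries, against 487, 1.15 and 0.58 RPM in MOG KO. Of its counts, 99.1% came from MOG KO replicate 1, and the other 5 libraries held 2 to 8 counts each. Smad4 therefore did not pass the filter, and the groups overlapped. The difference of mean log2(RPM + 1) was 2.44 (exact permutation p = 0.6), and -0.24 without MOG KO replicate 1. On GRCm38, Smad2 (Entrez 17126, 76241580 to 76310963), Smad4 (17128, 73639009 to 73703780) and Smad7 (17131, 75367529 to 75395935) lie within one region of chromosome 18. No library read all 3 of them: Smad4 was read with Smad2 in MOG KO replicate 1, and Smad7 with Smad2 in MOG KO replicate 2. Smad3 (17127) lies on chromosome 9 from 63646767 to 63757994.

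Among the inhibitors, Smad7 is the SMAD that the pathway itself induces and that shuts the receptor off. It had 106, 0 and 11.9 RPM in the WT libraries, against 0, 89.2 and 0.869 RPM in MOG KO. High and low libraries were found in both genotypes at similar levels. The log2 fold change was -0.39 ± 3.00 (SE), with a 95% interval of -7.39 to 6.61, and it ran from -6.40 without MOG KO replicate 2 to 2.22 without WT replicate 1. Even where it was read, Smad7 stood no higher than the 34.4 percentile of the genes read in the same library.

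Ski and Skil are related genes whose proteins bind SMADs and recruit repressors of transcription. Ski had 270, 158 and 322 RPM in the WT libraries, against 515, 8.94 and 340 RPM in MOG KO. MOG KO replicate 2 was the low library, with 39 counts, the highest count of any of the 10 genes in a library where the gene was under 10 RPM. The log2 fold change was 0.10 ± 1.60 (SE), with a 95% interval of -3.64 to 3.83. Its sign turned to -0.02 with the library scaling of DESeq2, so no direction can be given for Ski.

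Skil had 8.09, 481 and 36.0 RPM in the WT libraries, against 0, 2.06 and 2.03 RPM in MOG KO. Every WT library was above every MOG KO library, and WT replicate 2 held 92.9% of its counts. Groups that did not overlap, with MOG KO lower, were found for 4.57% of the genes tested. The log2 fold change of Skil was -6.93 ± 2.94 (SE), with a 95% interval of -13.79 to -0.07, an unadjusted p of 0.0482 and an adjusted p of 0.961 in edgeR. Skil passed the filter through its WT libraries, the group in which it was high, so the filter favoured a difference in this direction. DESeq2 put it past the threshold (-6.64 ± 2.32 SE, adjusted p = 0.03), as it did 10.2% of genes in this direction. Without WT replicate 2 the edgeR value was -4.10 (adjusted p = 0.81), and it was negative in every setting that tested Skil. Its 95% interval reached above 0 with the library scaling of DESeq2 (upper end 0.13), no filter (0.85) and the replicate block (0.79). The interval also reached above 0 with each single library left out. The difference of mean log2(RPM + 1) was -4.70, with an exact two-sided permutation p of 0.1, the smallest that 3 samples against 3 allow. Ski (Entrez 20481) lies on chromosome 4 from 155154075 to 155222592 and Skil (20482) on chromosome 3 from 31095058 to 31122577.

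Of the 10 genes, 7 passed the low-count filter and were tested, and 0 of 7 passed an adjusted p of 0.05 in edgeR, as did 0% of all 4088 genes in either direction. At an unadjusted p under 0.05 there was 1 of the 7, Skil, against 5.11% of all genes tested. Skil had passed the filter through its WT libraries, where it was high. Limma-voom called 0 of the 7. DESeq2 gave an adjusted p to 8 of the 10 genes. It called 1 as higher in MOG KO, Smad3, and 1 as lower, Skil. The shares over the 4648 genes it tested were 5.83% and 10.2%, or 16% in either direction. Smad3 and Skil had each passed the filter of DESeq2 through the group in which they were high. Of the 7, 4 had positive and 3 negative values, with a median of 0.10, and all genes tested had a median of 0.06. Their standard errors ran from 1.59 for Tgfbr2 to 3.00 for Smad7 on the log2 scale.

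**Figure D2:**
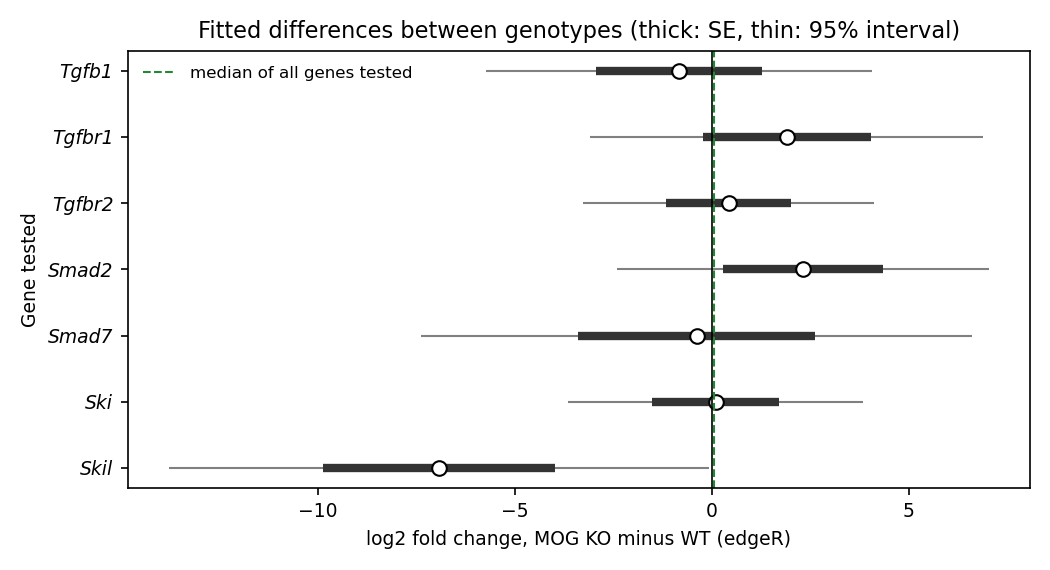
Log2 fold change of MOG KO minus WT in edgeR for the 7 genes tested, with thick bars for the standard error and thin bars for the 95% interval (3 libraries per group). The interval of Skil, -13.79 to -0.07, has its upper end just below 0, and Skil passed the filter through its WT libraries, where it was high. The intervals of the other 6 contain 0, and 0 of 7 passed after adjustment over all genes.

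The genes were mostly either well read or near 0 in a given library. Of the 60 values (10 genes in 6 libraries), 33 were at 10 RPM or more, 24 were under 3 RPM and 3 lay between. In genes read in at least 1 library, 44.9% of values were at 10 RPM or more, 52.0% under 3 RPM and 3.09% between. None of the 10 was read in all 6 libraries, as were 8.90% of these 7909 genes. In 5 libraries 4 of the 10 (40%) were read, against 8.51% of these genes. Each library read 5 to 7 of the 10 genes: 5, 7 and 5 in WT and 5, 6 and 5 in MOG KO. On average, 2 libraries of one genotype disagreed on 3.67 ± 1.03 of the 10 genes (SD over 6 pairs, range 2 to 5). For 2 libraries of different genotypes the mean was 4.56 ± 1.01 (SD over 9 pairs, range 3 to 6). The median was 4 in each case. WT replicate 3, which had the fewest genes read, disagreed with MOG KO replicates 1, 2 and 3 on 6, 5 and 6 genes. The pairs share libraries, so no test was made, and no such figure was formed over all genes.

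**Figure D3:**
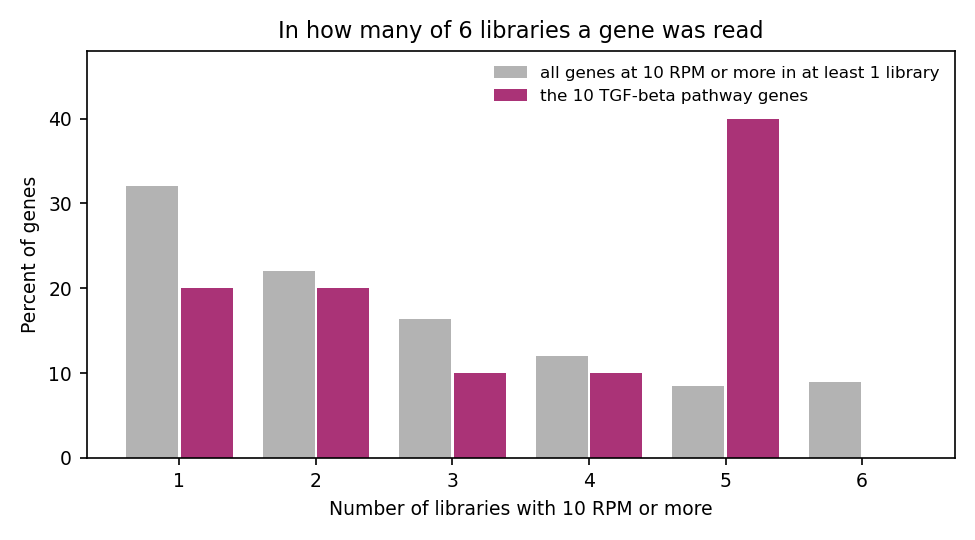
Percent of genes by the number of libraries, of 6, that had 10 RPM or more, for the 7909 genes read in at least 1 library (grey) and for the 10 pathway genes (purple). Of the 10, 4 (40%) were read in 5 libraries and none in all 6, against 8.51% and 8.90% of the 7909 genes.

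No single library read a complete chain from ligand to SMAD4. Counting Tgfb1, Tgfbr1, Tgfbr2, Smad2 or Smad3, and Smad4 as its 5 steps, WT replicates 1, 2 and 3 read 3, 4 and 2 steps and MOG KO replicates 1, 2 and 3 read 4, 4 and 3. WT replicate 2 lacked only Smad4, MOG KO replicate 1 only Tgfbr1 and MOG KO replicate 2 only Smad4. Since each library pools the RNA of 500 cells, a step listed near 0 is a reading of that library and not of each cell. Each library read only 34.2% to 56.1% of the genes read in at least 1 library, so missing steps are not particular to these genes.

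Per kilobase of annotated exon, the median level over the 6 libraries was highest for Ski (53.2 RPM per kb), then Tgfbr2 (43.6), Smad2 (33.8), Tgfb1 (31.2) and Tgfbr1 (11.4). Smad7 had 1.41 RPM per kb, Skil 0.524, Smad4 0.245, Smad3 0.127 and Lrrc32 0.0489. The ranges over libraries of any neighbours in this order overlapped, and the gene of the highest single value, Smad4 at 131 RPM per kb in MOG KO replicate 1, stood eighth by its median. The order is that of a median over on and off libraries and says little of the level in a library that reads the gene.

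The gene with the profile closest to each tested member was found by the root mean square difference of centred log2(RPM + 1) over the 6 libraries, among 3972 other genes. Closest of all was Trp53 to Tgfb1, at 0.17 log2 units, with 304, 196 and 514 RPM in the WT libraries, against 183, 377 and 0.869 RPM in MOG KO. Nfkbid lay at 0.24 from Smad2, Pik3cd at 0.37 from Tgfbr2, Khsrp at 0.46 from Ski, Tma7 at 0.62 from Tgfbr1, Acd at 0.66 from Smad7 and Rbm28 at 0.93 from Skil. No other member was the closest gene to any member. With 6 libraries and most genes on or off, a close profile describes these libraries only.

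Beyond the 10 genes, 7 lists of pathway genes held 111 genes of the table, of which 43 were tested in edgeR. Of these, 0 passed in either direction in edgeR and 0 in limma-voom, and 1 of the 43, Wwp1, had an unadjusted p under 0.05 in edgeR, against 5.11% of all genes tested. DESeq2 gave an adjusted p to 42 of the 111 and called 0 as higher in MOG KO, against 5.83% of the 4648 genes it tested. It called 4 as lower, Wwp1, Bmpr1a, Sin3a and Tgif2, against 10.2% of those genes. Each passed the filter of DESeq2 through WT libraries, where it was high, and the groups overlapped for Bmpr1a, Sin3a and Tgif2. Sin3a had 0, 575 and 24.4 RPM in the WT libraries, against 0, 0 and 0.29 RPM in MOG KO. Tgif2 had 100, 18.8 and 0 RPM in the WT libraries, against 0.231, 0 and 0 RPM in MOG KO. In edgeR 26 of the 43 had positive and 17 negative values and the median was 0.16, beside 0.06 for all genes tested. Among the 43, groups did not overlap for 0 genes with MOG KO higher, against 5.97% of all genes tested. They did not overlap for 2 with MOG KO lower, Nrp1 and the ubiquitin ligase gene Wwp1, against 4.57%. In all 6 libraries 12 of the 111 were read, and 19 had 0 counts in every library.

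**Figure D4:**
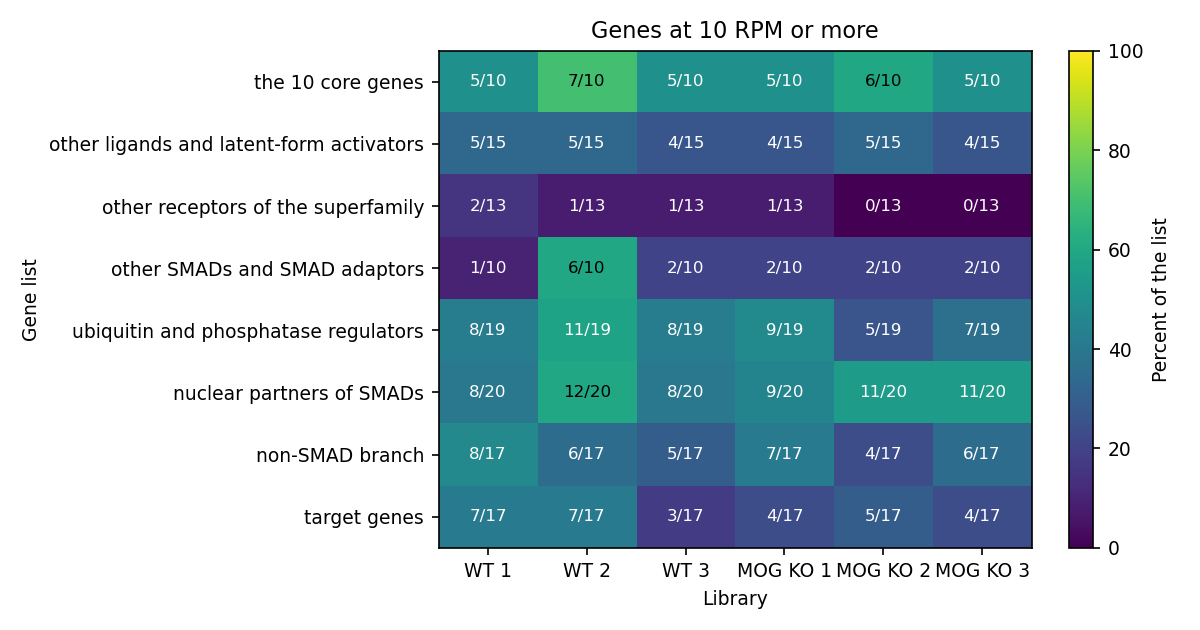
Number of genes at 10 RPM or more out of those matched in each list (rows) and library (columns), coloured by percent. The lists were read in part in every library except the other receptors, of which MOG KO replicates 2 and 3 read 0 of 13.

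Among 15 other ligands and genes that store or free latent TGF-beta, 5 were tested and 0 passed (1 positive, 4 negative, median -0.03). Tgfb2 and Tgfb3, the other TGF-beta isoforms, had 1 count each over all libraries. Itgb8, an integrin chain with which Tregs free the ligand, was read in 1 library, MOG KO replicate 2, at 393 RPM. Its partner Itgav had 19.1, 28.2 and 733 RPM in the WT libraries, against 908, 0.917 and 1.45 RPM in MOG KO, so the library that read Itgb8 did not read Itgav. Nrp1, a surface receptor of Tregs that binds latent TGF-beta, was read in every library, with a log2 fold change of -1.35 ± 0.65 (SE), and Itgb1, an integrin chain, had 0.64 ± 0.99 (SE).

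The other receptors of the superfamily were nearly unread. Of 13, which serve activins, bone morphogenetic proteins and related ligands, 7 had 0 counts in every library and none was tested in edgeR. Bmpr1a, a bone morphogenetic protein receptor, had 205 and 199 RPM in WT replicates 1 and 2 and at most 0.688 RPM elsewhere. Its groups overlapped, and DESeq2 called it as lower (-8.85 ± 2.89 SE, adjusted p = 0.0186), as it did 10.2% of genes. Bmpr2 had 73.4 RPM in WT replicate 3 and 48.8 RPM in MOG KO replicate 1, and Acvr2a 27.2 RPM in WT replicate 1.

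Among 10 other SMADs and adaptors, 3 were tested and 0 passed (2 positive, 1 negative, median 0.37). Smad5, a SMAD of the bone morphogenetic protein branch, had 2.58, 51.2 and 0.85 RPM in the WT libraries, against 0, 188 and 642 RPM in MOG KO, for a log2 fold change of 3.98 ± 3.00 (SE). Smad6 and Smad9 had 0 counts in every library. Sptbn1, a spectrin that also serves as a SMAD adaptor, had -2.60 ± 2.41 (SE). Fkbp1a, which encodes FKBP12, a brake on the type I receptor, was read evenly at 261, 271 and 313 RPM in the WT libraries, against 493, 385 and 274 RPM in MOG KO (0.37 ± 1.05 SE).

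Among 19 ubiquitin and phosphatase regulators, 9 were tested in edgeR and 0 passed (7 positive, 2 negative, median 0.19). Wwp1, a ubiquitin ligase that can act on the type I receptor with SMAD7, had 41.9, 22.8 and 34.0 RPM in the WT libraries, against 0, 0.459 and 0.29 RPM in MOG KO. All 3 WT libraries were above all MOG KO libraries, at a low level, and the log2 fold change was -6.91 ± 2.3 (SE, adjusted p = 0.65 in edgeR). Like Skil, Wwp1 passed the filter through its WT libraries, where it was high, and groups lay apart in this direction for 4.57% of genes tested. Uchl5, a deubiquitinase, had 1.65 ± 3.08 (SE), and Ppp1ca, a catalytic subunit of protein phosphatase 1, 0.02 ± 0.87 (SE).

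Among 20 nuclear partners of SMADs, 12 were tested in edgeR and 0 passed (8 positive, 4 negative, median 0.66). Kmt2d, a histone methyltransferase, had a log2 fold change of 2.96 ± 2.05 (SE) and Hdac1, a histone deacetylase, 3.33 ± 2.36 (SE). The groups overlapped for both genes. Kmt2d had 8.83, 8.94 and 26.9 RPM in the WT libraries, against 20.3, 300 and 51.3 RPM in MOG KO. Hdac1 had 4.78, 2.91 and 29.2 RPM in the WT libraries, against 1.85, 284 and 121 RPM in MOG KO. Foxo1, a transcription factor of T cell quiescence, had 573, 593 and 166 RPM in the WT libraries, against 634, 3.67 and 804 RPM in MOG KO (0.09 ± 1.43 SE), low in the library in which Ski was also under 10 RPM.

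Among 17 genes of the branch that signals without SMADs, 9 were tested and 0 passed (6 positive, 3 negative, median 0.20). Tab2, an adaptor of the kinase TAK1, had 92.7, 702 and 938 RPM in the WT libraries, against 3.24, 2.52 and 251 RPM in MOG KO, for a log2 fold change of -2.82 ± 2.00 (SE). Map3k7, which encodes TAK1, was under 10 RPM in every library. Mapk9, a JNK kinase gene, had -1.39 ± 2.80 (SE), and Cdc42, a small GTPase gene, 0.24 ± 0.64 (SE).

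Among 17 genes that TGF-beta is known to regulate, 5 were tested and 0 passed (2 positive, 3 negative, median -0.56). Itgae, which encodes the integrin chain CD103 that TGF-beta induces in T cells, was read in every library at 1095, 1149 and 489 RPM in the WT libraries, against 909, 201 and 797 RPM in MOG KO. Its groups overlapped, and the log2 fold change was -0.56 ± 0.62 (SE), with a 95% interval of -2.01 to 0.89. MOG KO replicate 2, the lowest library for Itgae, read both receptor genes and Smad7 and had Smad4 under 10 RPM. A link of these levels to Itgae was not tested. Junb, an AP-1 subunit gene, had 542, 430 and 535 RPM in the WT libraries, against 431, 375 and 254 RPM in MOG KO (-0.58 ± 0.76 SE). Rgs16 and Snai1 had 0 counts in every library.

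Markers of other cells that use this pathway were low or uneven. The B cell list summed to 2.21 to 206 RPM in the WT libraries, against 0 to 130 RPM in MOG KO, and the genes read were Cd79b or Ms4a1. The monocyte and macrophage list summed to 6.26 to 20.6 RPM in the WT libraries, against 5.78 to 193 RPM in MOG KO, the last from Cd68 in MOG KO replicate 2. The dendritic cell list summed to at most 1.74 RPM, the neutrophil list to at most 1.10 RPM and the plasma cell list to at most 10.3 RPM. The part of these cells in the values above was not tested.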

How the data were processed

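RNA was measured in 6 Treg libraries. Per the labels' protocols, RNA from 500 cells was copied with the SMARTer V3 kit, amplified by 15 PCR cycles, tagged with NexteraXT and read as single 100-base reads, with no molecular identifiers named. In the deposited count table each value is a whole number of reads for 1 gene in 1 library. The deposited RPM values are those counts rescaled to reads-per-million of the library's total. STAR 2.3.1, R 3.2.2 and mm10 are named per the submitters' processing notes, and no source used here gives the counting method, gene models or strand setting. No other gene shares exon bases with the 10 members in GENCODE M21 (GRCm38), from which coordinates and exon lengths were taken.

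The test was that of edgeR 4.0.16, run in R 4.3.3 (filterByExpr, TMM scaling, robust quasi-likelihood fit, genotype alone), which kept 4088 genes. Benjamini-Hochberg adjustment ran over all of them, with a threshold of 0.05. The standard error was taken as the size of the log2 fold change over the root of its F statistic. Single genes were also compared by an exact two-sided permutation test on log2(RPM + 1). Alternatives were DESeq2 1.42.0, limma-voom (limma 3.58.1), other filters and scalings, a replicate block and each library left out. The fits were also run on simulated counts in which no gene was switched on or off between libraries of a group. That run does not show how they perform on data like these. The members and lists were chosen with earlier results of these data known. Named beside the 10 members were, in each list, up to 4 genes past the threshold or, where none passed, the 2 of smallest p and the 1 of highest mean, and the gene closest to each tested member. Other list genes named were chosen after their values were seen. Some list genes are not reported here.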

Additional observations from a re-analysis of the deposited data

How the results depend on the processing

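In edgeR and limma-voom, 0 genes and 0 of the 10 members passed under every alternative run, including each library left out (0 to 0). DESeq2 called 745 genes and 2 members, Skil and Smad3, each of which passed its filter through the group in which it was high. On the genes tested in edgeR, an alternative added after the data were seen, it called 210 genes and 1 member, Skil (log2 fold change -6.65). DESeq2 gave no adjusted p for Lrrc32 and Smad4. With at least 50 counts in 3 libraries, 5 members were tested, without Smad7 and Skil. Tgfbr1 turned to -0.37 in limma-voom. Ski turned to -0.024 with DESeq2 size factors, -0.12 in DESeq2, -1.01 in limma-voom, -0.87 with the replicate block and -0.0239 in DESeq2 on the genes tested in edgeR. The cause was not tested.

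With single libraries left out, the log2 fold change ran from -0.15 to 1.35 for Tgfbr2, -6.40 to 2.22 for Smad7 and -0.57 to 0.66 for Ski, each through 0, and kept its sign for Tgfb1, Tgfbr1, Smad2 and Skil. The difference of mean log2(RPM + 1) ran from -3.98 to 0.40 for Lrrc32, -1.16 to 2.69 for Tgfbr1, -0.36 to 3.43 for Tgfbr2, -0.24 to 3.89 for Smad4, -3.02 to 0.62 for Smad7 and -2.05 to 0.80 for Ski, and kept its sign for the other 4 members. Pseudocounts of 0.5 and 10 RPM turned no sign. Every member reached 10 RPM somewhere, so dropping that minimum had no member to add and was not run. Presence at 3 or 30 RPM left 4 to 7 members read per library.

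Deviations of same-numbered WT and MOG KO libraries correlated at -0.02, -0.0033 and -0.02 across genes. Those of unlike number correlated at -0.016 to 0.037. With most genes on or off in a library, these values cannot show whether the replicate numbers pair the libraries. With the replicate block 0 genes passed, and Smad2 had 5.52 and Skil -6.56. Depth allows 0.671 to 1.10 RPM at 0 counts.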
